A study of Mus musculus with 16 samples.

Results

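The DNA replication and G1/S genes are 42 genes that copy DNA or commit a cell to copying it, and they were chosen by gene symbol. All 42 were among the 50508 genes of the count table and among the 13856 genes that had enough reads to be tested. The cells were monocytes grown from the bone marrow of 4 wild-type mice, exposed for 24 h to macrophage colony-stimulating factor (M-CSF), and their messenger RNA was sequenced. Cells of each animal received PFM037 together with tumour necrosis factor (TNF), TNF alone, PFM037 alone, or vehicle, so that the 4 groups hold 4 libraries each, and all of them had M-CSF, vehicle included. PFM037 is a compound with a code name only. Its target and dose, the dose of TNF, and the strain, age and sex of the mice are not stated in the labels.

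M-CSF drives both the survival and the division of monocyte and macrophage precursors, and TNF is an inflammatory cytokine that signals through NF-kB. Before DNA is copied, the origin recognition complex, Cdc6 and Cdt1 load the MCM helicase onto DNA, and Cdc45 and the GINS complex then switch it on. Primase and the DNA polymerases make the new strands, the Pcna ring holds the polymerases to DNA, and ribonucleotide reductase with its partner enzymes supplies the nucleotides. Most of these genes are switched on together at the G1/S boundary by the E2F transcription factors, so their messenger RNA is widely used as a sign of cells that divide. In RNA from whole cultures, fewer cells in S phase and less messenger RNA per cell cannot be told apart.

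Library totals ran from 15092524 to 18694616 counts in PFM037+TNF, from 9403232 to 21017905 in TNF, from 11142804 to 18845228 in PFM037 and from 14114703 to 20125134 in vehicle. Within the TNF group, animals 3 and 4 had the fewest counts (11186760 and 9403232). The 42 genes together took 17998 to 74644 counts per library. Of the listed monocyte and macrophage markers, the lysozyme Lyz2 had a mean over all libraries of 27600.1 CPM. Csf1r, the M-CSF receptor, had a mean of 1810 CPM. CPM are read counts scaled to a common library total. In RNA from whole cultures, the cells that the Lyz2 reads came from cannot be told. Markers of lymphocytes summed to at most 55.3 CPM in any library, whereas markers of mature neutrophils summed to 7343 to 18889 CPM, so neutrophil transcripts were present. No listed marker in the table was at 0 in all libraries.

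Promoters were read because the genes share a known class of regulators. The RefSeq windows (GRCm38.p6, from 250 bases before to 50 bases after the start) covered 35 of the 42 genes. They do not include Mcm4, Gins1, Gins2, Prim2, Pole, Rfc2 and Ccne2. The 5 shown were chosen among the genes with an E2F-type match whose levels in every library are given. They belong to those with the smallest adjusted p with TNF. Lig1 had 3 windows and E2f2 had 2, and the window shown for each is the first that had a match. All 5 run 5′ to 3′ along the gene's own strand, and capitals mark the E2F-type words, on either strand.
Cdt1 (chr8:122567765-122568064, plus strand): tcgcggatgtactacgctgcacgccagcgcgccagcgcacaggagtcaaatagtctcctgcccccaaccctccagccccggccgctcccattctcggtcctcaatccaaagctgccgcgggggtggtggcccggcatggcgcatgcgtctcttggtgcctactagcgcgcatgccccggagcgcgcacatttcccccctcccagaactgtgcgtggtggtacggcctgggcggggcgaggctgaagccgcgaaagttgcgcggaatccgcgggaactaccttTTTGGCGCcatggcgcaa
Mcm6 (chr1:128359656-128359955, minus strand): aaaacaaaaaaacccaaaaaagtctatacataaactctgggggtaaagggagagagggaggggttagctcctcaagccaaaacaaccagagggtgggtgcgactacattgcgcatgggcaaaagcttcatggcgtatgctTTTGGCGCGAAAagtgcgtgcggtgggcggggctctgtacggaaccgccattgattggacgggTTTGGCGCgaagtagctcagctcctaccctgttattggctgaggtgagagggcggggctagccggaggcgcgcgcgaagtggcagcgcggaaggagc
Cdc6 (chr11:98907901-98908200, plus strand): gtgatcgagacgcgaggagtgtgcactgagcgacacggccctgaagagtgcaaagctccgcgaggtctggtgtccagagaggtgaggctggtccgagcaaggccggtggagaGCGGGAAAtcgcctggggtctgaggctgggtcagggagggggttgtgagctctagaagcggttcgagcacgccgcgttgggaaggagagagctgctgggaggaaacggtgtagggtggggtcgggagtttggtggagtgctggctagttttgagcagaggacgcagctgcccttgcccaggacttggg
Lig1 (chr7:13278576-13278875, plus strand): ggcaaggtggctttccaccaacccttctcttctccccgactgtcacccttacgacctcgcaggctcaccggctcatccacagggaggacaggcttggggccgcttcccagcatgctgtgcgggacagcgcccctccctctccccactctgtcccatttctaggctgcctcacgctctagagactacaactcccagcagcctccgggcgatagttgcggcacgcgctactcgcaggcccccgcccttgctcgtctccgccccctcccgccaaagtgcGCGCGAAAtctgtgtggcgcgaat
E2f2 (chr4:136172024-136172323, plus strand): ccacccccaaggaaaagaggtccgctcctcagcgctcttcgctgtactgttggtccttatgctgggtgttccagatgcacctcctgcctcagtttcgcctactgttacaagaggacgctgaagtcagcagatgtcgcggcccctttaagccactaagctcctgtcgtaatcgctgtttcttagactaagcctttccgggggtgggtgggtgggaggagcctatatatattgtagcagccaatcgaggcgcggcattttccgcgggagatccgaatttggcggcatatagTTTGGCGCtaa
The words searched, on both strands, were TTTCCCGC, TTTGGCGC, TTTCGCGC and TTTGCCGC for E2F, TTTGAA for the cell cycle homology region of late cell cycle genes, and CCAAT for NF-Y. An E2F-type word was found in 15 of the 35 genes, or 42.9%, against 2.60% of the 27025 genes with a window. Mcm6 carried 3 matches, and the first pair of them overlap, as the longest run of capitals shows. CCAAT was found in 21 of 35 genes (60.0%, against 41.1% of all genes) and TTTGAA in 5 of 35 (14.3%, against 20.2%). A match is a description of letters and not a proof of binding.

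Levels per kilobase of exon differed widely among the genes, as the plot of levels per exon length shows. Over all libraries the clamp gene Pcna had the highest level at 67.3 CPM per kilobase. The helicase subunits Mcm6 and Mcm3 followed at 45.6 and 45.1 CPM per kilobase, and the reductase subunit Rrm2 stood at 41.9 CPM per kilobase. The lowest were Gins3, a helicase activator, at 3.33 CPM per kilobase, Pole, the leading-strand polymerase, at 2.78 CPM per kilobase and Orc1, an origin recognition subunit, at 2.37 CPM per kilobase.

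**Figure D1:**
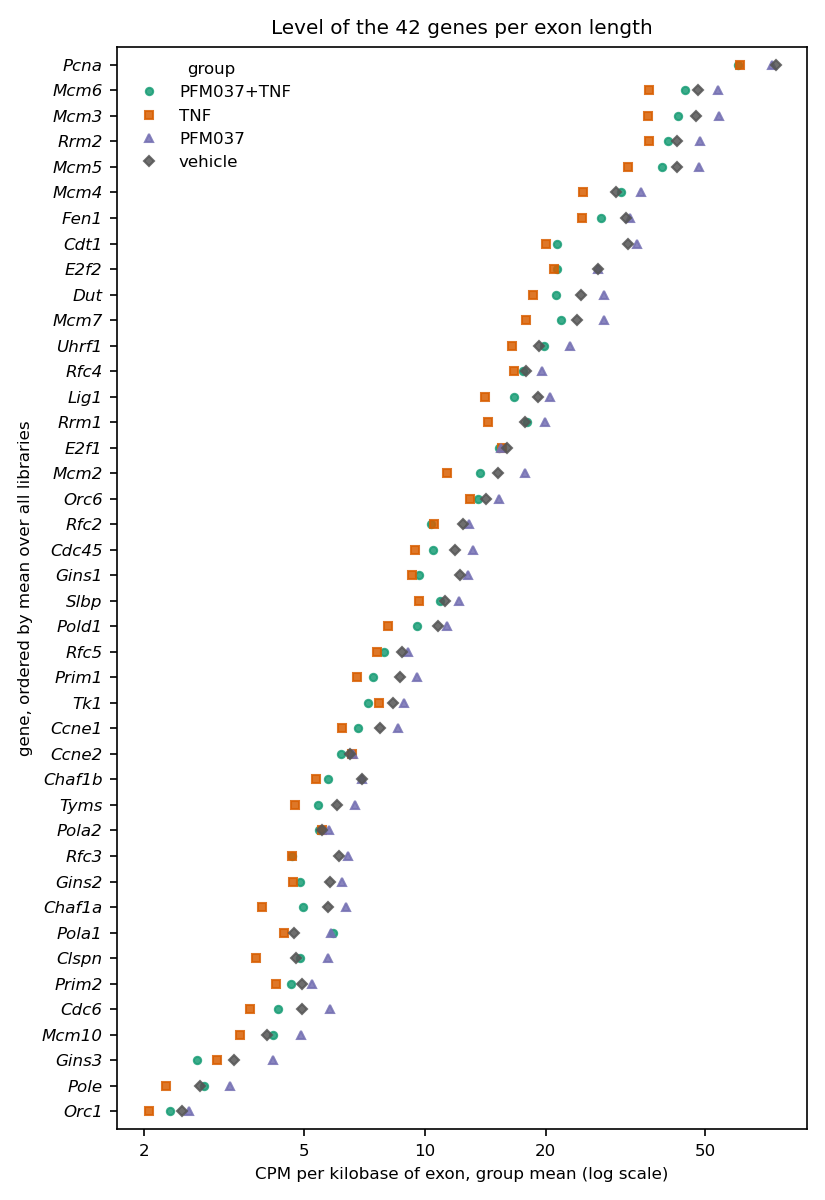
Group means of the 42 genes in CPM per kilobase of exon, on a log axis, with 1 symbol per group. Pcna is highest and Orc1 lowest, and for most genes the TNF mean lies to the left of the vehicle mean.

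Much of the variation lay between animals. Of the 42 genes, 41 were lower on average in animals 3 and 4 than in animals 1 and 2, with a median difference of -0.47 on the log2 scale. The widest gaps were those of the nucleotide genes Dut (-0.999 on the log2 scale) and Tyms (-0.85) and of Orc1 (-0.82). E2f2, an E2F activator, was the 1 gene that was higher in animals 3 and 4 (0.20). These animals also stood apart from animals 1 and 2 over all tested genes. Within groups, counts of animals 3 and 4 differed by a chi-square per gene of 7.01 to 9.39. Between either of them and animal 1 or 2 it was 46.2 to 119.5. Animals 1 and 2 differed from each other by 16.7 to 52.9. Over the 42 genes, a median of 57.1% of the variance in log2 CPM lay between animals, 30.2% between treatments and 12.0% in neither. Pola1, the catalytic subunit of the priming polymerase, had the largest treatment share, 59.2%, and Ccne2, a cyclin of the G1/S step, had the smallest, 1.03%. The main tests below compare treatments within animals, because the labels give the same individuals in each group. Fits without the animal term are given beside them.

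**Figure D2:**
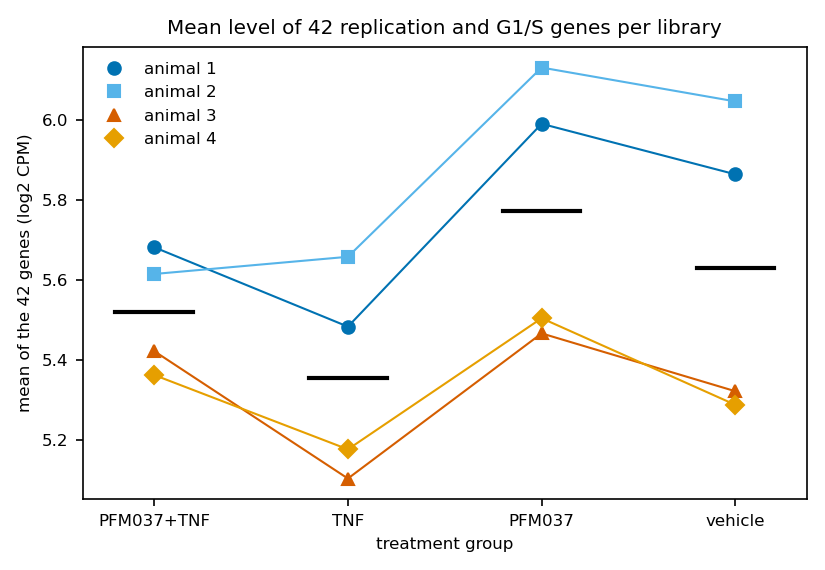
Mean log2 CPM of the 42 genes in each library, with lines joining the libraries of 1 animal and bars at the group means. Animals 1 and 2 lie above animals 3 and 4 in every group, and each animal has a lower point with TNF than with vehicle.

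The 42 genes together summed to 2416, 2802, 1951 and 2015 CPM in the TNF libraries of animals 1 to 4, against 3214, 3736, 2292 and 2251 CPM in their vehicle libraries. Every animal was lower with TNF, while the groups overlap because the vehicle libraries of animals 3 and 4 are lower than the TNF libraries of animals 1 and 2. Of the 42 genes, 26 fell and 0 rose with TNF by edgeR's quasi-likelihood test with Benjamini-Hochberg adjustment, where 9.84% of all tested genes fell and 9.59% rose. The log2 fold changes ran from -0.66 to 0.02 with a median of -0.30, against -0.02 for all genes. In 4 of 4 animals 29 of the 42 were lower (69.05%), against 22.2% of all genes. The median log2 difference was -0.39, -0.39, -0.25 and -0.14 in animals 1 to 4. These calls rest on the comparison within animals: without the animal term 0 of the 42 passed, where 0.880% of all genes fell. An unadjusted p under 0.05 was then reached by 5 of the 42 and by 1844 of all 13856 genes. With the animal term, 2 of the 42 passed without animal 1 (Cdt1 and Mcm6), where 4.94% of all genes fell, so that share is near the background. Without animal 2 it was 16, where 5.77% of all genes fell, and without animal 4 it was 16, where 5.13% fell. Without animal 3 it was 22, where 8.42% fell.

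Among the MCM helicase genes 6 of 7 fell with TNF. Mcm6 had 186, 209, 138 and 143 CPM in the TNF libraries of animals 1 to 4, against 259, 292, 169 and 173 CPM with vehicle. Mcm3 had 143, 164, 111 and 123 CPM with TNF, against 187, 250, 136 and 140 CPM with vehicle. Mcm4 had 91.4, 114, 75.04 and 75.1 CPM with TNF, against 119, 126, 92.4 and 92.1 CPM with vehicle. All 3 genes were lower in each animal, although the groups overlap. Log2 fold changes were -0.39 for Mcm6 (SE 0.08, adjusted p = 0.00221), -0.37 for Mcm3 (SE 0.09, adjusted p = 0.00666) and -0.28 for Mcm4 (SE 0.08, adjusted p = 0.0150). Mcm2, Mcm5 and Mcm7 fell by 0.40, 0.38 and 0.39 on the log2 scale. Mcm10, which joins the helicase to the polymerase, had -0.23 and did not pass (adjusted p = 0.0974).

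Of the 8 genes of origin licensing and helicase activation, 4 fell with TNF, and Cdt1 had the smallest adjusted p of the 42. Cdt1, the loading factor that cells destroy once S phase begins, had 71.7, 84.0, 49.2 and 47.5 CPM with TNF, against 117, 138, 76.0 and 71.8 CPM with vehicle. Each animal was lower by a similar amount, with log2 differences of -0.70, -0.72, -0.63 and -0.59. The fitted log2 fold change was -0.66 (SE 0.09, adjusted p = 6.51e-05), or 0.631 of vehicle. Cdc6, its partner in loading, had 20.8, 23.7, 16.5 and 15.9 CPM with TNF, against 28.9, 36.2, 18.9 and 19.9 CPM with vehicle. Cdc45, part of the active helicase, had 35.5, 46.5, 26.7 and 24.3 CPM with TNF, against 47.8, 60.6, 32.7 and 25.6 CPM with vehicle. Both were lower in 4 of 4 animals with overlapping groups, Cdc6 by -0.42 (SE 0.09, adjusted p = 0.00375) and Cdc45 by -0.31 (SE 0.10, adjusted p = 0.0439). Gins1 fell by 0.39 on the log2 scale. Orc1, Orc6, Gins2 and Gins3 had -0.25, -0.12, -0.29 and -0.14 and did not pass.

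Of the polymerase and primase genes, 2 of 6 fell with TNF. Pold1, the lagging-strand polymerase, had 39.4, 46.5, 35.6 and 36.5 CPM with TNF, against 48.5, 76.0, 44.1 and 41.1 CPM with vehicle (log2 fold change -0.39, SE 0.13, adjusted p = 0.0395). Pold1 was lower in every animal, with overlapping groups. Pola1 had 36.1, 47.0, 31.6 and 43.1 CPM with TNF, against 45.04, 42.7, 38.0 and 40.6 CPM with vehicle, so animals 1 and 3 were lower and animals 2 and 4 higher. Pola2, the subunit that partners Pola1, had 42.3, 52.6, 43.9 and 45.5 CPM with TNF, against 46.4, 60.2, 38.9 and 39.2 CPM with vehicle. There animals 1 and 2 were lower and animals 3 and 4 higher, and the fitted log2 fold change was 0.00 (SE 0.11, adjusted p = 0.984). Pola1 had -0.09 (SE 0.10, adjusted p = 0.559). The primase subunit Prim1 fell by 0.35 on the log2 scale, while its partner Prim2 (-0.22) and Pole (-0.28) did not pass.

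Of the clamp, clamp loader and strand joining genes, 5 of 7 fell with TNF. Pcna had 171, 153, 129 and 132 CPM with TNF, against 226, 195, 151 and 146 CPM with vehicle. Lig1, the ligase that seals the lagging strand, had 59.1, 69.6, 58.8 and 53.6 CPM with TNF, against 85.7, 107, 68.3 and 66.2 CPM with vehicle. Both were lower in every animal with overlapping groups, Pcna by -0.28 (SE 0.07, adjusted p = 0.00799) and Lig1 by -0.43 (SE 0.09, adjusted p = 0.00395). The clamp loader subunits Rfc2 and Rfc3 fell by 0.24 and 0.38 on the log2 scale, and the flap nuclease Fen1 fell by 0.34. Rfc4 (-0.09) and Rfc5 (-0.20) did not pass. Pcna has the copies Pcna-ps1 and Pcna-ps2 in the table, and 84.2% of the exonic bases of Fen1 and 67.3% of those of Gins2 overlap other genes, so these counts are uncertain if the counting did not use strand or split shared reads.

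Nucleotide supply genes fell in 4 of 5 cases. Rrm1, the large subunit of ribonucleotide reductase, had 152, 195, 136 and 150 CPM with TNF, against 214, 237, 164 and 167 CPM with vehicle. Rrm2, its small subunit, had 111, 138, 78.9 and 72.9 CPM with TNF, against 146, 156, 91.3 and 77.5 CPM with vehicle. Each animal was lower with TNF for both subunits, and the groups overlap. Log2 fold changes were -0.30 for Rrm1 (SE 0.07, adjusted p = 0.00884) and -0.22 for Rrm2 (SE 0.07, adjusted p = 0.0432). Tyms, which makes thymidylate, and Dut, which removes dUTP, fell by 0.34 and 0.36 on the log2 scale. Tk1, the thymidine salvage kinase, had -0.10 and did not pass (adjusted p = 0.437).

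Of the regulators of the G1/S step, 2 of 5 fell with TNF. E2f2 had 79.6, 96.2, 123 and 112 CPM with TNF, against 109, 143, 138 and 136 CPM with vehicle, lower in every animal with overlapping groups (log2 fold change -0.37, SE 0.08, adjusted p = 0.00557). E2f1, the related activator, had 51.6, 53.5, 46.9 and 45.1 CPM with TNF, against 55.6, 63.8, 43.3 and 39.6 CPM with vehicle. Animals 1 and 2 were lower and animals 3 and 4 higher for E2f1 (log2 fold change -0.03, SE 0.08, adjusted p = 0.855). Clspn, a replication checkpoint adaptor, fell by 0.33 on the log2 scale. The cyclins Ccne1 and Ccne2 had -0.29 and 0.02 and did not pass. The difference in response between E2f2 and E2f1 was not tested.

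Of the chromatin and histone supply genes, 3 of 4 fell with TNF. Chaf1a, which deposits histones behind the fork, had 32.9, 43.1, 31.6 and 31.9 CPM with TNF, against 55.9, 69.02, 40.0 and 38.2 CPM with vehicle. Slbp, which binds histone messenger RNA, had 61.1, 65.0, 55.9 and 53.0 CPM with TNF, against 70.9, 83.2, 61.5 and 57.7 CPM with vehicle. Uhrf1, which helps copy DNA methylation, had 70.0, 91.0, 62.5 and 57.0 CPM with TNF, against 91.5, 113, 63.6 and 60.2 CPM with vehicle. All 3 were lower in every animal with overlapping groups. Log2 fold changes were -0.53 for Chaf1a (SE 0.12, adjusted p = 0.00404), -0.21 for Slbp (SE 0.06, adjusted p = 0.0196) and -0.21 for Uhrf1 (SE 0.09, adjusted p = 0.134), which did not pass. Chaf1b, the partner of Chaf1a, fell by 0.36 on the log2 scale. Of the exonic bases of Chaf1a, 52.5% overlap Ubxn6 on the other strand, and this count carries the same uncertainty as that of Fen1.

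**Figure D3:**
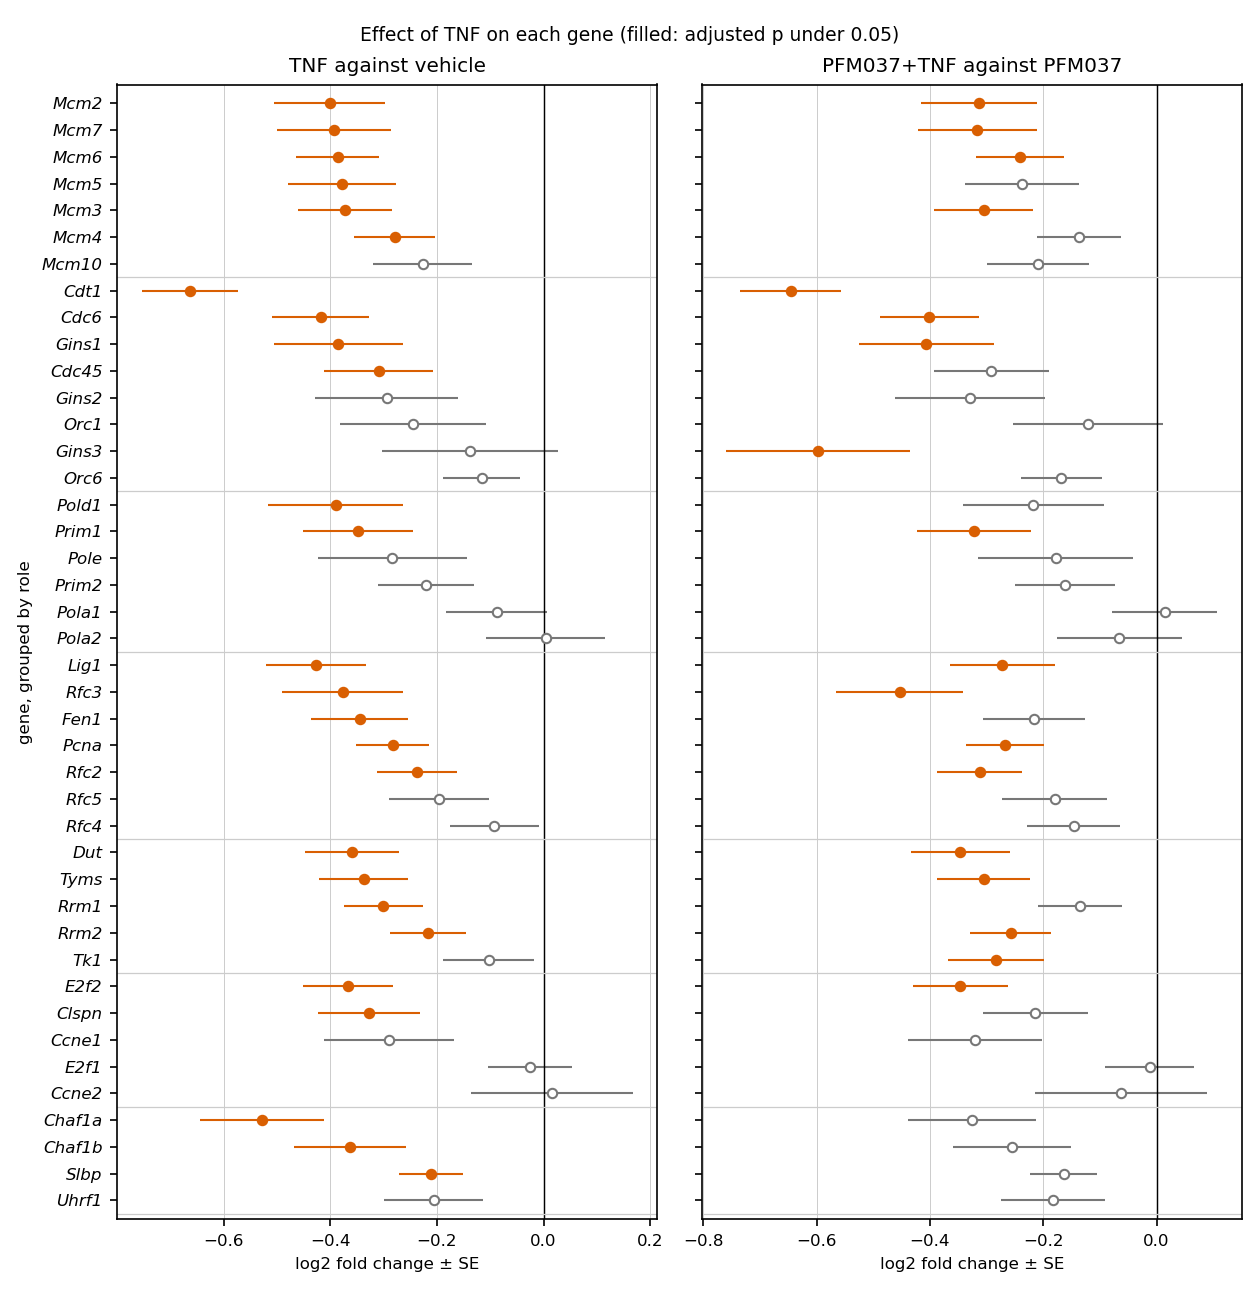
Log2 fold change of each of the 42 genes with its SE, by role, for TNF against vehicle (left) and PFM037+TNF against PFM037 (right), where filled symbols have an adjusted p under 0.05. On the left 26 symbols are filled and Cdt1 lies furthest out at -0.66, and on the right 18 are filled.

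Split by promoter, 11 of the 15 genes with an E2F-type word fell with TNF, with a median log2 fold change of -0.38. Of the 20 genes with a window but no such word, 12 fell, with a median of -0.29. Both subsets span much of the same range, from -0.66 to -0.09 with the word and from -0.53 to 0.00 without it, and the difference was not tested.

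Genes beyond the 42 were read from lists of the same pathways. Of 39 other replication genes, 8 fell and 0 rose with TNF. They include the histone chaperone Asf1b (log2 fold change -0.59, SE 0.07, adjusted p = 9.33e-06), the single-strand binding protein Rpa1 (-0.32) and Dbf4 (-0.29), which activates the Cdc7 kinase. Of 27 tested genes for G1 cyclins, kinases, inhibitors and pocket proteins, 11 fell and 2 rose. Ccnd1, the D-type cyclin that M-CSF induces, fell by 0.53 on the log2 scale (SE 0.08, adjusted p = 0.000225). Cdkn2c, an inhibitor of Cdk4 and Cdk6, and Myc fell by 0.79 and 0.44. The 2 that rose were Cdk6 (0.40) and Cdkn1a (0.38), the p21 inhibitor. Of 30 mitosis and G2/M genes 24 fell, among them the centromere histone Cenpa (-0.67), the cyclin Ccnb2 (-0.59) and the mitotic factor Foxm1 (-0.61).

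Markers of other cell types moved as well with TNF. Of 8 mature neutrophil markers 4 fell (Ly6g, Camp, Ltf and Retnlg), and their sum per library ranged from 7343 to 11224 CPM with TNF, against 8432 to 17222 CPM with vehicle. Of 8 neutrophil precursor markers 1 fell (Gfi1), with sums of 566 to 1669 CPM with TNF and 600.0 to 2189 CPM with vehicle. Of 10 mast cell, basophil and eosinophil markers 1 rose (Kit). Of 10 erythroid and megakaryocyte markers 1 fell, with sums of 1136 to 2562 CPM with TNF and 878 to 2348 CPM with vehicle. Of 9 tested lymphocyte markers 1 fell. Of 7 tested dendritic cell markers 1 rose and 1 fell, and of 5 tested stromal and endothelial markers 1 rose. Of 11 tested monocyte and macrophage markers 5 rose and 4 fell, with log2 fold changes from -1.16 to 0.67. They summed to 36942 to 45350 CPM with TNF and 26691 to 37461 CPM with vehicle, much of it Lyz2. The part of all these cell type markers in the lower replication genes was not tested.

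TNF was also compared with its absence in cells that had PFM037. The 42 genes summed to 2912, 2788, 2431 and 2313 CPM in the PFM037+TNF libraries of animals 1 to 4, against 3588, 3969, 2500 and 2571 CPM in the PFM037 libraries. All 4 animals were lower with both agents, by little in animal 3, and the groups overlap. Of the 42 genes 18 fell and 0 rose, where 9.76% of all tested genes fell and 10.6% rose, and the median log2 fold change was -0.26, against -0.01 for all genes. In 4 of 4 animals 24 were lower (57.1%), against 19.0% of all genes. The median log2 difference was -0.29, -0.54, -0.04 and -0.13 in animals 1 to 4. Without animal 1, 9 of the 42 fell, where 8.17% of all genes did. Without animal 2 it was 4, where 4.79% of all genes fell, and without animal 4 it was 8, where 4.19% fell. Without animal 3 it was 22, where 8.03% fell. Without the animal term 0 passed, where 0.714% of all genes fell. An unadjusted p under 0.05 was then reached by 5 of the 42 and by 1866 of all 13856 genes.

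Cdt1 again had the smallest adjusted p of the 42. It had 89.6, 68.4, 56.2 and 54.4 CPM with PFM037+TNF, against 132, 129, 87.9 and 76.2 CPM with PFM037 (log2 fold change -0.65, SE 0.09, adjusted p = 8.39e-05). Cdc6 had 25.1, 26.2, 20.6 and 18.4 CPM with PFM037+TNF, against 34.1, 41.5, 23.1 and 22.6 CPM with PFM037 (-0.40, SE 0.09, adjusted p = 0.00437). E2f2 had 90.7, 97.4, 114 and 115 CPM with PFM037+TNF, against 118, 150, 125 and 135 CPM with PFM037 (-0.35, SE 0.08, adjusted p = 0.00824). Cdt1, Cdc6 and E2f2 were lower in every animal, and the E2f2 groups do not overlap. Pcna had 156, 151, 137 and 135 CPM with PFM037+TNF, against 204, 181, 167 and 149 CPM with PFM037 (-0.27, SE 0.07, adjusted p = 0.0115). Lig1 had 80.2, 71.3, 68.0 and 65.2 CPM with PFM037+TNF, against 94.8, 113, 69.4 and 71.9 CPM with PFM037 (-0.27, SE 0.09, adjusted p = 0.0466). Rrm2 had 139, 130, 94.8 and 83.3 CPM with PFM037+TNF, against 169, 164, 106 and 99.2 CPM with PFM037 (-0.26, SE 0.07, adjusted p = 0.0172). These 3 genes too were lower in every animal, with overlapping groups.

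By role, 4 of 7 MCM genes, 4 of 8 licensing genes, 1 of 6 polymerase genes, 4 of 7 clamp genes, 4 of 5 nucleotide genes and 1 of 5 G1/S regulators fell, and 0 of 4 chromatin genes. Mcm6 (-0.24) and Mcm3 (-0.31) fell, while Mcm4 had -0.14 (adjusted p = 0.209) and Rrm1 -0.13 (adjusted p = 0.212). Gins3, with -0.60 (SE 0.16, adjusted p = 0.0160), had the second largest fall of the 42. Chaf1a had 50.3, 42.5, 42.2 and 41.1 CPM with PFM037+TNF, against 63.8, 74.5, 43.2 and 44.2 CPM with PFM037. Chaf1a was lower in every animal but did not pass (-0.33, SE 0.11, adjusted p = 0.0513).

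Other lists moved in the same comparison. Of the 30 mitosis and G2/M genes 18 fell and 1 rose (Pttg1), and of the 39 other replication genes 9 fell and 0 rose. Of 8 neutrophil precursor markers 4 fell (Elane, Prtn3, Gfi1 and Fcnb), with sums of 612 to 1697 CPM with PFM037+TNF and 680.0 to 2702 CPM with PFM037. Of 8 mature neutrophil markers 1 fell (Retnlg). Of 11 monocyte and macrophage markers 6 rose and 2 fell, with log2 fold changes from -0.83 to 0.74. They summed to 35566 to 43327 CPM with PFM037+TNF and 23953 to 35343 CPM with PFM037. Much of each sum is Lyz2, by its mean level given above. The part of these markers in the lower replication genes was not tested.

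PFM037 was set against its absence in cells with TNF and in cells without it. With TNF present, 3 of the 42 genes rose with PFM037 and 0 fell, where 0.534% of all tested genes rose and 0.823% fell. The median log2 fold change was 0.17, against 0.01 for all genes. Of the 42 values 35 lay above 0, against 7255 of all 13856 genes. In 4 of 4 animals 15 genes were higher (35.7%), against 12.2% of all genes. The summed levels of the PFM037+TNF libraries, given above, exceed those of the TNF libraries in animals 1, 3 and 4, and animal 2 is about level (2788 against 2802 CPM). The median log2 difference was 0.21, -0.02, 0.31 and 0.18 in animals 1 to 4.

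The 3 genes were Rrm1, Mcm4 and Pola1, which are protein-coding and lie on chromosomes 7 (102441695 to 102469771, plus strand), 16 (15623897 to 15637400, minus strand) and X (93304767 to 93632155, minus strand) of GRCm38. Rrm1 had 201, 213, 193 and 185 CPM with PFM037+TNF, against 152, 195, 136 and 150 CPM with TNF (log2 fold change 0.34, SE 0.07, adjusted p = 0.0407). Mcm4 had 120, 119, 106 and 98.0 CPM with PFM037+TNF, against 91.4, 114, 75.04 and 75.1 CPM with TNF (0.34, SE 0.08, adjusted p = 0.0432). Pola1 had 44.98, 56.6, 54.4 and 52.2 CPM with PFM037+TNF, against 36.1, 47.0, 31.6 and 43.1 CPM with TNF (0.41, SE 0.09, adjusted p = 0.0456). Each of them was higher in all 4 animals, by least in animal 2 for Rrm1 (0.13) and Mcm4 (0.07), and the groups overlap. The calls are close to the threshold. The count was 0 without animal 1 and 0 without animal 4, where 0% of all genes rose in either fit. It was 0 without animal 3, where 0.100% of all genes rose, and 4 without animal 2, where 0.174% rose. Without the animal term it was 0, where 0% of all genes rose. An unadjusted p under 0.05 was then reached by 3 of the 42 and by 515 of all 13856 genes. The count of risen genes was 1 without the shallow TNF libraries of animals 3 and 4, where 0.291% of all genes rose. It was 11 when genes with low counts were kept, where 0.916% rose.

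Several other helicase genes had values of the same size that did not pass. Mcm6 had 227, 225, 194 and 185 CPM with PFM037+TNF, against the TNF values given above, and was higher in every animal (0.32, SE 0.08, adjusted p = 0.0522). Mcm3 had 189, 173, 144 and 135 CPM with PFM037+TNF and was likewise higher in every animal (0.25, SE 0.09, adjusted p = 0.165). All 7 MCM genes lay above 0, from 0.25 to 0.34. Uhrf1 had 100.4, 92.3, 72.1 and 72.5 CPM with PFM037+TNF, above TNF in every animal (0.28, SE 0.09, adjusted p = 0.150). Slbp had 72.8, 74.7, 61.3 and 56.4 CPM with PFM037+TNF, also above TNF in every animal (0.17, SE 0.06, adjusted p = 0.168). Chaf1a was higher in animals 1, 3 and 4 and lower in animal 2 (0.36, SE 0.12, adjusted p = 0.140).

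For PFM037+TNF against TNF, Cdt1 had 0.11 (SE 0.09, adjusted p = 0.619), Pcna -0.01 (SE 0.07, adjusted p = 0.976), E2f2 0.03 (SE 0.08, adjusted p = 0.897) and E2f1 -0.03 (SE 0.08, adjusted p = 0.896). E2f1 had 55.2, 49.1, 46.9 and 41.7 CPM with PFM037+TNF. Pola2 had 51.4, 40.2, 47.1 and 42.5 CPM with PFM037+TNF (-0.01, SE 0.11, adjusted p = 0.976). Animal 1 was higher and animal 2 lower than with TNF for both E2f1 and Pola2, and the groups overlap. Cdc45 had 41.5, 41.0, 32.7 and 32.1 CPM with PFM037+TNF (0.18, SE 0.10, adjusted p = 0.417), and Pold1 had 54.8, 45.9, 46.8 and 38.5 CPM (0.25, SE 0.13, adjusted p = 0.361). Both were higher than with TNF in animals 1, 3 and 4 and lower in animal 2.

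Of the lists beyond the 42, mitosis and G2/M genes rose in 4 of 30 cases (Top2a, Kif11, Nusap1 and Prc1), and Ccnd1 rose by 0.44 on the log2 scale (SE 0.08, adjusted p = 0.0238). None of the 39 other replication genes passed. An unadjusted p under 0.05 was reached by 12 of them, and by 2132 of all 13856 genes. Mature neutrophil markers rose in 3 of 8 cases (Ly6g, Mmp9 and Ltf), with sums of 8668 to 18253 CPM with PFM037+TNF and 7343 to 11224 CPM with TNF. All 10 mast cell, basophil and eosinophil markers lay above 0 (median 0.28), and none passed. Their part was not tested.

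Without TNF, 0 of the 42 genes passed for PFM037 against vehicle by edgeR, DESeq2 or limma-voom. In edgeR 0.0794% of all tested genes passed in either direction. In DESeq2 0.0722% of them rose and 0.440% fell, and in limma-voom 0.0217% rose and 0.0577% fell. In edgeR an unadjusted p under 0.05 was reached by 14 of the 42, and by 1195 of all 13856 genes. Of the 42 values 40 lay above 0, against 6935 of the 13856, with a median of 0.13 against 0.00 for all genes. In 4 of 4 animals 23 were higher (54.8%), against 10.5% of all genes. The median log2 difference was 0.15, 0.07, 0.15 and 0.20 in animals 1 to 4. When the model held these groups alone, 0.419% of all genes rose and 1.37% fell, and 4 of the 42 rose: Mcm2, Mcm10, Pola1 and Uhrf1 (adjusted p = 0.0355, 0.0403, 0.0223 and 0.0491).

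Some lists of cell type markers also lay wholly or mostly to one side of 0 for PFM037 against vehicle, and others were split. Above 0 lay 6 of 10 erythroid and megakaryocyte markers and 6 of 9 tested lymphocyte markers. So did 4 of 7 tested dendritic cell markers and 3 of 5 tested stromal and endothelial markers. None of the markers in any of these lists passed by edgeR. All 10 mast cell, basophil and eosinophil markers lay above 0 (median 0.37, 7 at an unadjusted p under 0.05), with sums of 143 to 511 CPM with PFM037 and 129 to 376 CPM with vehicle. All 8 neutrophil precursor markers (median 0.22) and all 8 mature neutrophil markers (median 0.15) lay above 0, while 9 of 11 monocyte and macrophage markers lay below it (median -0.14). Of the 30 mitosis and G2/M genes 29 lay above 0 (median 0.16). Their part in the values of the 42 genes was not tested.

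Pola1 had 55.1, 57.3, 44.9 and 49.2 CPM with PFM037, against the vehicle values given above, higher in every animal (log2 fold change 0.31, SE 0.09, adjusted p = 0.283). Mcm3 had 234, 262, 153 and 159 CPM with PFM037 (0.19, SE 0.09, adjusted p = 0.577). Mcm6 had 289, 311, 200.4 and 202 CPM with PFM037 (0.18, SE 0.08, adjusted p = 0.549). For these 3 genes each animal was higher than with vehicle and the groups overlap. Mcm4 had 146, 151, 96.0 and 102 CPM with PFM037 (0.19, SE 0.07, adjusted p = 0.427). Rrm1 had 241, 263, 183 and 192 CPM with PFM037 (0.17, SE 0.07, adjusted p = 0.524). Uhrf1 had 119, 127, 68.8 and 76.8 CPM with PFM037 (0.25, SE 0.09, adjusted p = 0.380). Here too every animal was higher, with overlapping groups.

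For Cdc45 the PFM037 libraries had 52.2, 64.1, 34.6 and 34.3 CPM (0.17, SE 0.10, adjusted p = 0.704), and for Slbp they had 82.7, 83.5, 64.9 and 65.8 CPM (0.12, SE 0.06, adjusted p = 0.582). Both genes were higher than with vehicle in every animal. Pold1 had 62.2, 75.9, 39.1 and 44.3 CPM with PFM037 (0.08, SE 0.12, adjusted p = 0.926) and Pola2 had 50.1, 58.9, 41.5 and 41.3 CPM (0.06, SE 0.11, adjusted p = 0.940). E2f1 had 53.1, 57.1, 42.1 and 42.8 CPM with PFM037 (-0.04, SE 0.08, adjusted p = 0.935). Pold1, Pola2 and E2f1 had animals on either side of their vehicle library. Pcna (-0.02) and E2f1 were the 2 genes below 0.

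**Figure D4:**
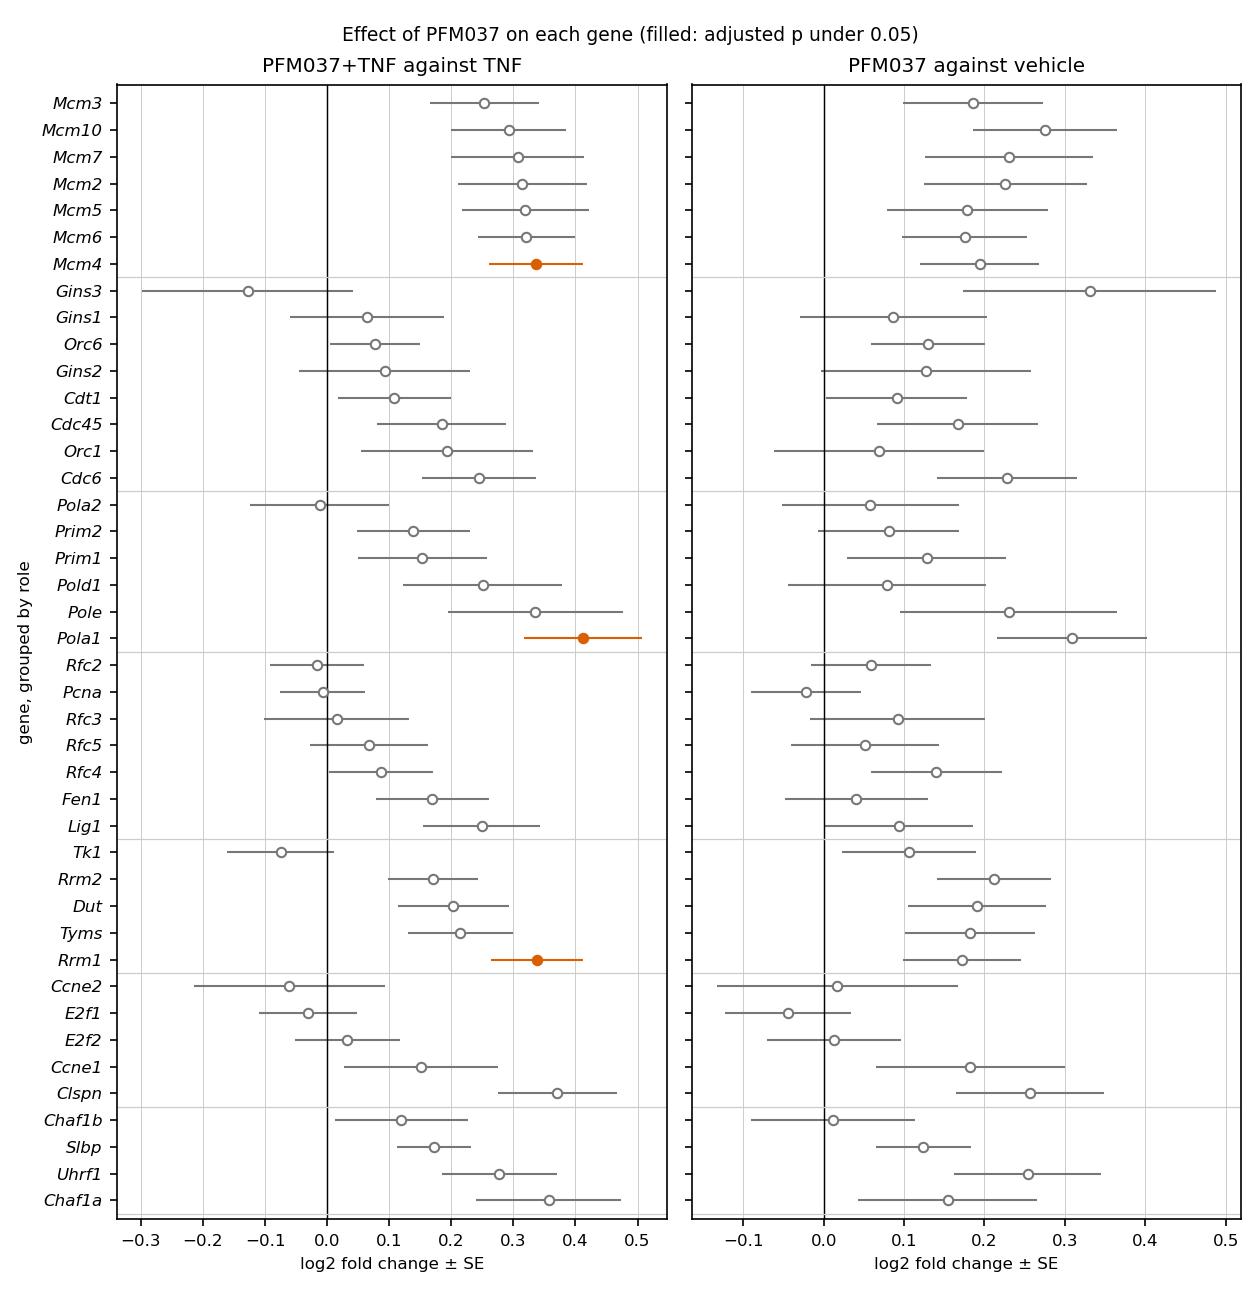
Log2 fold change of each of the 42 genes with its SE, by role, for PFM037+TNF against TNF (left) and PFM037 against vehicle (right), where filled symbols have an adjusted p under 0.05. On the left the 3 filled symbols are Mcm4, Pola1 and Rrm1, and on the right no symbol is filled although 40 of 42 lie above 0.

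The comparisons above share libraries. TNF against vehicle and PFM037 against vehicle share the vehicle libraries, and TNF against vehicle and PFM037+TNF against TNF share the TNF libraries with opposite sign, so the values of a gene in them are not independent. The interaction tests whether PFM037 changed the genes by different amounts with and without TNF. None of the 42 genes passed in edgeR, DESeq2 or limma-voom. An unadjusted p under 0.05 was reached by 0 in edgeR, 0 in DESeq2 and 1 in limma-voom. Over all 13856 genes it was reached by 383, 263 and 442, and 0% of them passed in edgeR. The median interaction over the 42 was 0.02 on the log2 scale, against 0.01 for all genes, and it was 0.11, -0.12, 0.19 and -0.01 in animals 1 to 4. Single genes ran from -0.46 (Gins3, SE 0.23) to 0.20 (Chaf1a, SE 0.16). A p that misses the threshold does not show that the effects were alike.

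PFM037+TNF was lastly set against vehicle. Of the 42 genes 5 fell, where 12.0% of all tested genes fell, and 1 rose, where 12.8% rose, so the called shares were not above those of all genes. The 5 were Cdt1 (log2 fold change -0.56, SE 0.09, adjusted p = 0.000301), Pcna (-0.29, SE 0.07, adjusted p = 0.00550), E2f2 (-0.33, SE 0.08, adjusted p = 0.00823), Rfc2 (-0.25, SE 0.07, adjusted p = 0.0206) and Rfc3 (-0.36, SE 0.11, adjusted p = 0.0258), each lower in 4 of 4 animals. Pola1 rose (0.32, SE 0.09, adjusted p = 0.0179), with animal 1 level with vehicle and animals 2 to 4 higher. The median was -0.12, and by animal it was -0.18, -0.44, 0.11 and 0.09, so animals 1 and 2 were lower and animals 3 and 4 higher. In 4 of 4 animals 6 genes were lower (14.3%), against 18.7% of all genes. Without animal 2 the median was 0.01 and 3 genes fell, where 7.13% of all genes did, and without animal 1 also 3 fell, where 10.2% did. Pola1 did not pass without animal 2, 3 or 4, or without the animal term. Without that term 0 of the 42 passed in either direction, where 1.26% of all genes fell and 1.38% rose. An unadjusted p under 0.05 was then reached by 4 of the 42 and by 2242 of all 13856 genes.

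Other cell types' markers moved for PFM037+TNF against vehicle too. Of 10 mast cell, basophil and eosinophil markers 5 rose (Prss34, Ms4a2, Kit, Prg2 and Epx; median of the 10, 0.43), with sums of 144 to 592 CPM with PFM037+TNF and 129 to 376 CPM with vehicle. Of 11 monocyte and macrophage markers 5 rose and 4 fell, with log2 fold changes from -1.13 to 0.51. They summed to 35566 to 43327 CPM with PFM037+TNF and 26691 to 37461 CPM with vehicle, much of it Lyz2. Of 8 neutrophil precursor markers 1 fell (Gfi1), and 0 of 8 mature neutrophil markers passed. An unadjusted p under 0.05 was reached by 3 of these 8, and by 5146 of all 13856 genes. The part of these markers in the values of the 42 genes was not tested.

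**Figure D5:**
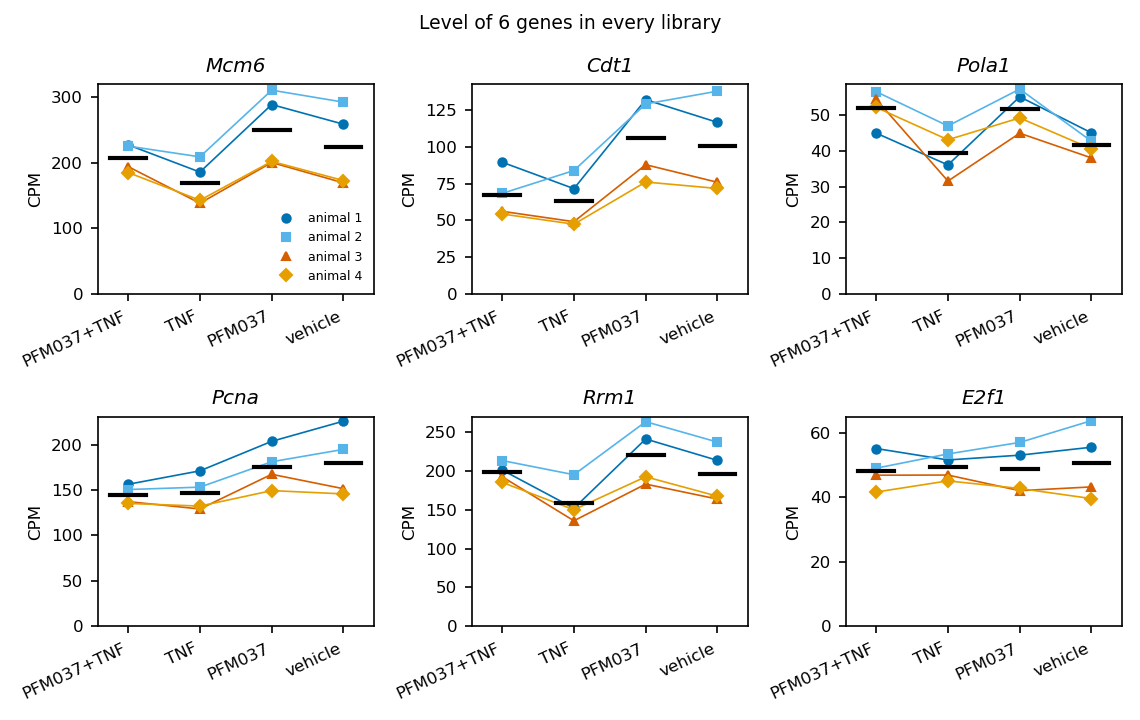
CPM of 6 genes in every library, with lines joining the libraries of 1 animal and bars at the group means. Cdt1 and Pcna have low means in both groups with TNF, Rrm1 averages 198 CPM with PFM037+TNF and 158 CPM with TNF, and the group means of E2f1 stay between 48.2 and 50.6 CPM.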

How the data were processed

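Messenger RNA of 16 libraries was measured in 4 groups of 4. Per the labels' protocols, 500 ng of total RNA went into a stranded poly(A) library kit and single reads of 75 bases were taken. STAR 2.5.3a, featureCounts and limma, and the mouse build mm10 (GRCm38), are named per the submitters' processing notes. No source used here gives the strand setting or the annotation release. The values are the authors' raw read counts per gene symbol, as deposited, and no column was pooled. Of its gene symbols, 26 were turned into dates and cannot be named, and none of these is among the 42 genes.

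Counts were tested with edgeR 4.0.16 (R 4.3.3), using TMM scaling, filterByExpr (minimum count 10, minimum total 15), group and animal as terms over all 16 libraries, the quasi-likelihood F-test, two-sided, and Benjamini-Hochberg adjustment over 13856 genes with a threshold of 0.05. CPM use TMM-scaled library sizes, and log2 values per animal use a prior count of 2. The SE is the log2 fold change divided by the root of F. The script was tested on simulated counts. The labels give the same 4 individuals in each group. Libraries of 1 animal deviated together from their group means (correlation 0.497 to 0.777), and in 45 of 48 cases the closest library in another group was that animal's. No pair of libraries of a group matched within sampling noise (chi-square per gene at least 7.01).

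The members and lists were chosen with earlier results of these data known. Levels in every library are given for the 2 most abundant genes of each role, the 5 with the smallest adjusted p for TNF, and those past the threshold in a comparison of PFM037. Of each other pathway list, up to 3 genes per direction with the smallest adjusted p for TNF are named. In other comparisons the text gives the lists of mitosis genes, neutrophils, monocytes and mast cells by counts, and the genes it names from them were chosen after their values were seen. Emr1, an older symbol, was absent from the table. Gene lengths and overlaps come from GENCODE M21 (GRCm38), and promoters from RefSeq (GRCm38.p6). Alternatives in scaling, filter, tool, samples and the animal term were DESeq2 1.42.0 size factors and test, library size alone, no filter, at least 5 CPM in at least 4 libraries, limma-voom 3.58.1, the groups compared alone, and each animal left out. Leaving out the TNF libraries of animals 3 and 4 was added after seeing the data.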

Additional observations from a re-analysis of the deposited data

Results flagged for a closer look

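The 42 genes were checked in 4 groups and their median difference in 6 comparisons, which makes 174 sets of 4 animals. In 3 sets, 1 animal stood far from the other 3, judged by how much of the range its gap to the nearest takes (Dixon's criterion). Chance alone flags about 1 in 20 such sets, and 1.72% were flagged here. Ccne2 had 31.8 CPM in the PFM037 library of animal 1, against 19.5 to 21.4 CPM in the other PFM037 libraries. Chaf1a had 50.3 CPM in the PFM037+TNF library of animal 1, against 41.1 to 42.5 CPM in the others of that group. Chaf1a also had 43.1 CPM in the TNF library of animal 2, against 31.6 to 32.9 CPM in the others of that group.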

How the results depend on the processing

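Without the replicate block, the counts of fallen genes were 0 of 42 for TNF against vehicle, 0 for PFM037+TNF against PFM037 and 0 for PFM037+TNF against vehicle, and the counts of risen genes were 0 for PFM037+TNF against TNF and 0 for PFM037+TNF against vehicle. In the same order, 0.880%, 0.714% and 1.26% of all genes fell, and 0% and 1.38% rose. The medians of the 42 genes moved little, to -0.31 for TNF against vehicle.

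Fits were repeated with 1 animal left out at a time (or the TNF libraries of animals 3 and 4). Fallen genes then numbered 2 to 22 for TNF against vehicle, where 4.94% to 8.42% of all genes fell. For PFM037+TNF against PFM037 they numbered 4 to 22, where 4.19% to 8.81% of all genes fell. For PFM037+TNF against vehicle they numbered 3 to 7, where 6.69% to 11.4% of all genes fell. Risen genes numbered 0 to 4 for PFM037+TNF against TNF, where 0% to 0.291% of all genes rose. They numbered 0 to 1 for PFM037+TNF against vehicle, where 7.72% to 12.0% of all genes rose. The median ran from -0.21 to 0.011 for PFM037+TNF against vehicle and from -0.00041 to 0.085 for the interaction. Fewer samples enter these fits.

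For PFM037+TNF against TNF, 11 genes rose with no filter on low counts (0.916% of all genes), 5 with DESeq2 (1.34%), 5 with limma-voom (0.678%) and 5 with the groups compared alone (1.00%). With the groups compared alone, 4 genes rose for PFM037 against vehicle, where 0.419% of all genes rose. For PFM037+TNF against vehicle 0 rose and 2 fell, where 7.79% of all genes rose and 6.84% fell. With library size alone, 29 fell for PFM037+TNF against PFM037, where 16.4% of all genes fell. Why these counts moved was not tested.

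Signs turned for genes near 0 that did not pass the test. For TNF against vehicle, Pola2 had -0.053 with library size alone, -0.0084 with no filter, -0.0074 with limma-voom and -0.0030 without the block, and -0.095 to 0.077 with animals left out. There Ccne2 had -0.043 with library size alone and -0.075 to 0.12 with animals left out, and E2f1 had -0.11 to 0.057. For PFM037 against vehicle with animals left out, Pold1 had -0.016 to 0.14, Pcna -0.076 to 0.021, E2f1 -0.084 to 0.00079 and E2f2 -0.022 to 0.058, and Pcna had 0.015 with library size alone. For PFM037+TNF against TNF with animals left out, Pola2 had -0.13 to 0.10, Pcna -0.050 to 0.020, E2f1 -0.087 to 0.059 and E2f2 -0.031 to 0.18. With library size alone Pola2 had 0.015 and Pcna 0.019.

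Of the 26 genes that fell with TNF, 2 passed in all 4 fits without an animal, 9 in 3, 7 in 2, 7 in 1 and 1 (Rfc2) in 0. Low genes such as Orc1 and Gins3 are measured with larger SE than the MCM genes.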
